A study of Rattus norvegicus with 2 samples.

Results

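Long-span circRNAs were the circRNAs whose 2 back-splice ends lay at least 25000 nt apart in the genome, counted as end minus start plus 1. This rule used position alone and no measured level. It took 525 of the 4734 circRNAs in the rat lung table (11.1%). SD rats received PBS (Sham) or LPS at 2 mg/kg by intratracheal spray, and lung tissue was taken after 24 h. LPS, a bacterial cell wall component, injures the lung and gives a model of acute lung injury (ALI). The study used 12 rats in all, and 1 Sham and 1 LPS circRNA library were sequenced after ribosomal RNA removal and RNase R digestion of linear RNA. The sources used here do not say from how many rats each library was made. With 1 library per group, no value has a replicate error, and the treatment cannot be told apart from any other difference between the 2 libraries.

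A circRNA forms when the end of a downstream exon is joined back to the start of an upstream exon of the same transcript. Such RNA has no free ends and resists exonucleases. The span between its 2 ends includes introns that are usually spliced out, so the genomic span is not the length of the RNA. Long spans arise from genes with very long introns. They can also arise where sequences that lie far apart, such as copies of a gene family, are joined or are aligned as if joined.

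The deposited values count reads across the back-splice junction, scaled so that each library sums to 1e+06 (CPM). One read was worth 26.2 CPM in Sham and 19.0 CPM in LPS, which gave depths of 38112 and 52505 junction reads. Since only the junction is counted, the level does not depend on the length of the circle. The lowest level listed was 2 reads. A circRNA below this carried a fill-in of 0.001, which was treated as zero and allows up to 124 CPM in Sham and 90.4 CPM in LPS (4.74 reads, the one-sided 95% limit for 1 read). All intervals below cover counting error only. In bulk lung tissue, fewer cells of a type and less RNA per cell cannot be told apart.

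The median span of the 525 long-span circRNAs was 40482 nt, against 3516 nt in the 4209 shorter ones. The quartiles were 30731 and 59343 nt. There were 338 with a span of 25000 to 49999 nt, 135 of 50000 to 99999 nt and 52 of 100000 nt or more. Only 18 reached 150000 nt, and the longest was 199893 nt. None in the table exceeded 200000 nt. They lay on 21 chromosomes. Chromosome 17 had the highest share, with 44 of its 185 circRNAs (23.8%), followed by chromosome 20 (20.3%) and chromosome 13 (17.6%). The lowest share was 3.31% on chromosome 12, with 6 of 181.

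Of the 525, 174 (33.1%) were listed in both libraries, 199 (37.9%) in Sham alone and 152 (29.0%) in LPS alone. Over all 4734 circRNAs these shares were 37.1%, 32.4% and 30.5%. The long-span circRNAs were thus listed in Sham alone more often than the table as a whole. This was not particular to them: circRNAs of up to 500 nt had 38.6% in Sham alone and 30.8% in both. Most long-span circRNAs were rare. Their median was 5 reads over both libraries, the same as over all circRNAs, and 378 (72.0%) had fewer than 10 reads, against 66.6% of all. The most abundant long-span circRNA had 406 reads, while the most abundant circRNA of the table had 3775. The 10 most abundant held 2091 of the 7167 long-span reads (29.2%). Span and read number were nearly unrelated among them (Spearman rank correlation of -0.05 across the 525 circRNAs, which share the same 2 libraries).

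As a group, long-span circRNAs held a smaller share of the junction reads in LPS than in Sham. They took 3729 Sham reads, or 9.78% of the library (95% Wilson interval 9.49 to 10.1), and 3438 LPS reads, or 6.55% (6.34 to 6.76). The LPS share was 0.669 times the Sham share (95% interval 0.640 to 0.700). The 2 intervals of the shares did not overlap. Shares add up to the whole library, so a lower share of one class goes with a higher share of others. On single chromosomes the ratio was below 1 on 18 of 21.

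The ratio of the 2 shares was lower in each longer span class among the long-span circRNAs. From 25000 to 49999 nt the share was 6.27% in Sham and 4.42% in LPS, a ratio of 0.705 (0.667 to 0.745). From 50000 to 99999 nt it was 2.53% and 1.61%, a ratio of 0.638 (0.583 to 0.700). At 100000 nt or more it was 0.992% and 0.518%, a ratio of 0.522 (0.447 to 0.610). Neighbouring classes had overlapping intervals, while the first and the last class did not overlap. CircRNAs of 10001 to 24999 nt had a ratio of 0.823 (0.802 to 0.844). The 4 classes below that, from the shortest up, had ratios of 1.22, 1.19, 1.04 and 1.002. Without the 3 most abundant circRNAs of each class, the 3 long-span classes had ratios of 0.759, 0.672 and 0.455. The 5 shorter classes then had 1.19, 1.19, 1.01, 1.02 and 0.884, so that their order was not strict. With a single gene name as host, the long-span classes had 0.768, 0.692 and 0.517, and the shorter ones 1.24, 1.16, 0.998, 0.999 and 0.803.

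**Figure D1:**
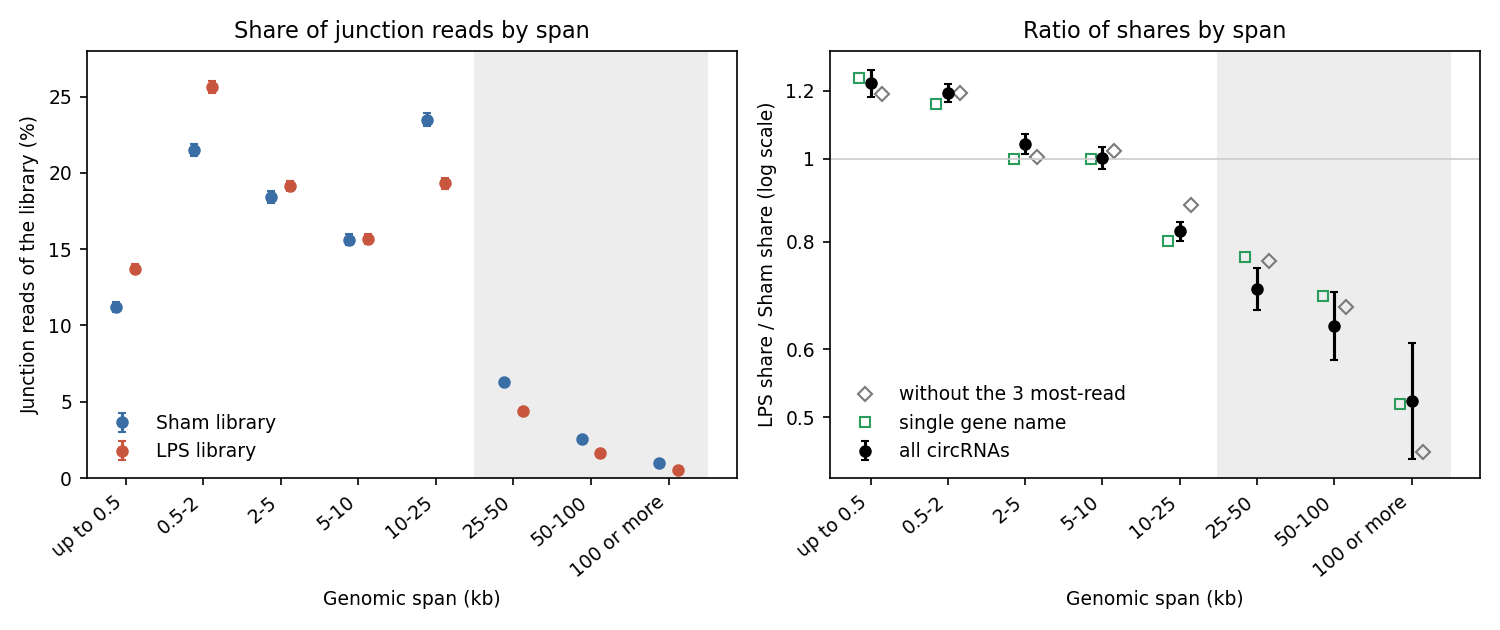
Left, percent of each library's junction reads by genomic span class (kb), Sham in blue and LPS in red, with 95% Wilson bars. Right, the LPS share divided by the Sham share on a log axis, with 95% bars for all circRNAs and open symbols without the 3 most-read circRNAs of a class or with single gene names only; the shaded long-span classes sit at 0.705, 0.638 and 0.522, below the 1.22 of the shortest class.

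The same order could be looked at within genes. In all, 206 host genes had both a long-span and a shorter circRNA. Their 303 long-span circRNAs held 5.13% of the Sham reads and 4.03% of the LPS reads, a ratio of 0.784 (0.738 to 0.833). Their 529 shorter circRNAs held 26.5% and 24.6%, a ratio of 0.930 (0.910 to 0.951). The long-span ratio was thus lower than the shorter one also in the same hosts, and the intervals did not overlap. Without the 3 hosts with the most reads the ratios were 0.797 for long-span and 1.03 for shorter circRNAs. Host by host the difference was less one-sided. Of 70 hosts with at least 10 reads in each class, the long-span circRNAs had the lower LPS to Sham ratio in 38 and the higher one in 32, with a median difference of -0.14 on the log2 scale.

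A circRNA was called higher or lower when its CPM, with 0.5 reads added, differed at least 2-fold between the libraries. By this rule 162 of the 525 (30.9%) were higher in LPS, against 35.7% of all circRNAs, and 255 (48.6%) were lower, against 43.3% of all. Among the 147 with at least 10 reads, 30 (20.4%) were higher, against 29.1% of such circRNAs at any span, and 52 (35.4%) were lower, against 29.6%. In both counts the higher side lay below the background and the lower side above it. Lower calls were also frequent at up to 500 nt (46.9%) and at 10001 to 24999 nt (47.5%). With at least 10 reads these 2 classes had 22.7% and 37.8% lower. Of the 174 long-span circRNAs listed in both libraries, 10 (5.75%) were higher, against 13.9% of all 1757 shared circRNAs, and 56 (32.2%) were lower, against 29.5%. The share of lower ones was thus near that of all shared circRNAs. With the fill-in taken as 1 read in place of 0, the calls were 76 higher and 255 lower.

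Most calls rested on detection in 1 library alone. There were 351 such circRNAs, and 257 of them had fewer than 5 reads, for which the fill-in limit does not guarantee a fold of 2. Over all circRNAs, 2977 were listed in 1 library alone, 2123 of them with fewer than 5 reads. Among the long-span ones, a fold of at least 2 held even at the fill-in limit for 19 of the 152 listed in LPS alone. It also held for 30 of the 199 listed in Sham alone. Over all circRNAs this was 155 of 1444 and 189 of 1533. Here and below, such a fold divides the listed CPM by the fill-in limit and leaves out the counting error of the listed value. For the 174 listed in both, the median log2 ratio was -0.46, which is also the value of equal read numbers at these depths and the median of all 1757 shared circRNAs. With at least 50 reads the medians parted: -0.41 over the 19 long-span circRNAs and 0.44 over the 323 of all spans.

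**Figure D2:**
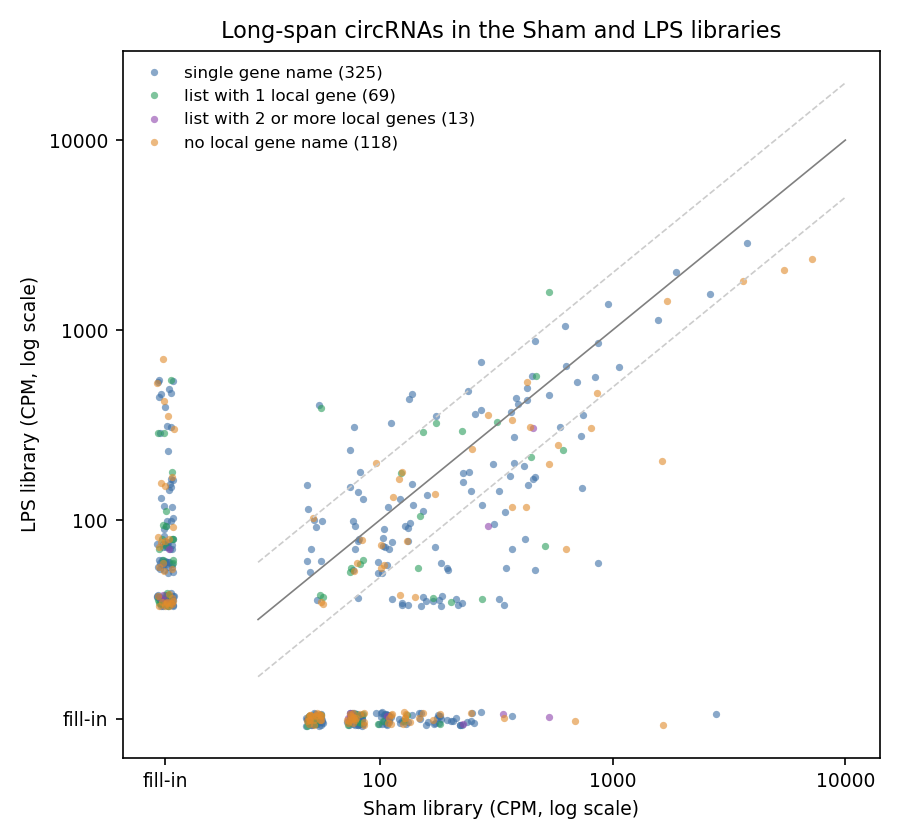
Each point is 1 of the 525 long-span circRNAs, with its CPM in the Sham library and in the LPS library on log axes, coloured by the kind of host name; points were shifted slightly at random so that equal values can be seen. The solid line marks equal CPM and the dashed lines 2-fold; 199 points on the lower edge and 152 on the left edge were listed in 1 library alone.

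Of the 10 most abundant long-span circRNAs, 3 were called lower in LPS, none higher and 7 neither. A circRNA with no gene of its own as host at chr10:62623758-62664462 (40705 nt) was first. It had 273 Sham and 133 LPS reads, or 7163 CPM and 2533 CPM, a ratio of 0.354. The 95% intervals were 6365 to 8061 CPM for Sham and 2138 to 3001 CPM for LPS. All positions are given as deposited; the processing notes of the submitters name the build rn6. A second such circRNA, at chr20:5347661-5414567, fell in the same proportion, with 5431 CPM in Sham and 1924 CPM in LPS. It overlaps a circRNA of RT1-A1, a class I gene of the rat major histocompatibility complex (MHC), which presents peptides to T cells. Another, at chr10:94083626-94187819, spans 104194 nt and overlaps a circRNA of Ace, which encodes angiotensin-converting enzyme. It had 3359 CPM in Sham and 1771 CPM in LPS, a ratio of 0.527 that missed the 2-fold rule. One at chr17:38026513-38080864, had 67 Sham and 69 LPS reads, a ratio of 0.748.

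Of the 10 most abundant, 6 had a named host, and 5 of these 6 were not called. Acbd6 encodes an acyl-CoA binding protein. Its circRNA at chr13:73239822-73265813 had 154 Sham and 160 LPS reads, 4041 CPM against 3047 CPM, a ratio of 0.754. The Psd3 circRNA at chr16:23555919-23600154 had 2729 CPM in Sham and 1581 CPM in LPS, a ratio of 0.579; Psd3 activates the small GTPase Arf6. For Arhgap10, which encodes a GTPase-activating protein, the circRNA at chr19:34270069-34298610 had 1784 CPM and 1981 CPM, a ratio of 1.11 with overlapping intervals. Cdkal1 encodes a tRNA-modifying enzyme, and its circRNA of 25034 nt at chr17:36602134-36627167 had 1548 CPM and 1219 CPM. Nckap5 gave 971 CPM in Sham and 1390 CPM in LPS at chr13:42745929-42807560, a ratio of 1.43. The sixth, Tmem164, did pass the rule.

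The widest contrast was at Tmem164, a gene for a multi-pass membrane protein. Its circRNA at chrX:114016360-114041613 had 114 reads in Sham (2991 CPM, 2491 to 3592) and was at the fill-in in LPS. The Sham value was 33.1-fold the LPS fill-in limit. It was the only one of the 10 most abundant that was missing from a library. The other long-span circRNAs of Tmem164 that share an end with it did not all follow. Left and right ends are used here for the lower and the higher coordinate, since the table gives no strand. One with the same right end had 0 Sham and 14 LPS reads, and one with the same left end had 11 reads in each library. A further pair had 3 and 2 Sham reads and none in LPS. The 5 junctions together had 130 Sham and 25 LPS reads, a ratio of 0.140, and the gene had no shorter circRNA in the table.

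**Figure D3:**
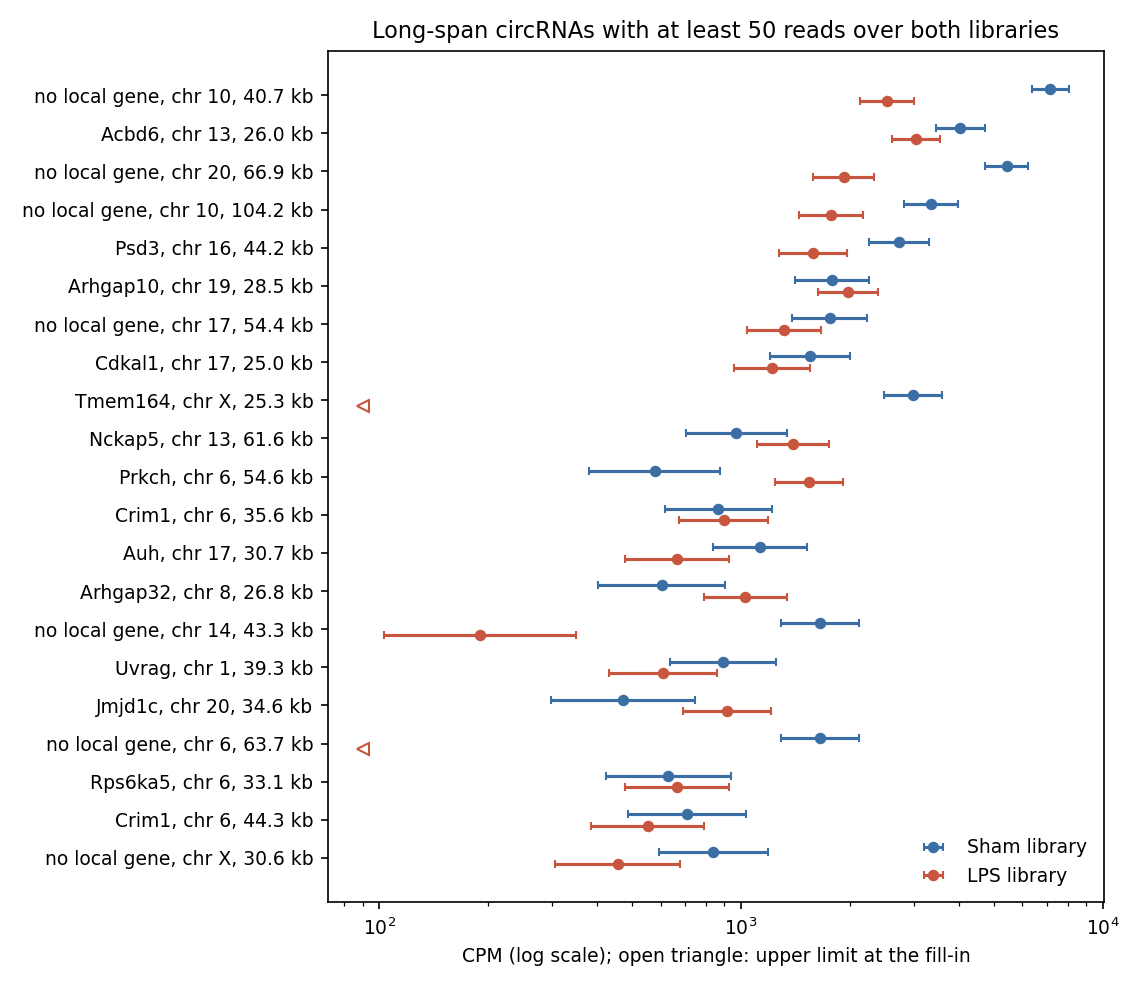
CPM on a log axis of the 21 long-span circRNAs that had 50 reads or more in sum, from most to fewest, with host, chromosome and span in kb; points carry 95% Wilson bars and an open triangle marks the fill-in limit of 90.4 CPM. Tmem164 and a circRNA of chromosome 6 lacked an LPS value, while Prkch lay higher in LPS with bars apart.

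Of the circRNAs listed in both libraries with at least 10 reads, the largest rises were small in reads. RGD1560175, on chromosome 11, and Stag1, which encodes a cohesin subunit, each had 2 Sham and 20 LPS reads, a ratio of 7.26. Cnot2 belongs to the CCR4-NOT complex, which shortens poly(A) tails. Its circRNA at chr7:59556898-59587314 had 131 CPM in Sham and 495 CPM in LPS, a ratio of 3.77. A second Cnot2 circRNA with the same left end and a span of 30487 nt, in place of 30417 nt, had 16 and 24 reads and a ratio of 1.09. The 2 Cnot2 circles, which differ at the right end alone, thus had unlike ratios. Fam188a, a deubiquitinase gene, had 3 and 15 reads, a ratio of 3.63. Prkch, which encodes protein kinase C eta, was the most abundant higher one, with a ratio of 2.67. Its level was 577 CPM in Sham (381 to 874) and 1543 CPM in LPS (1242 to 1917).

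The largest falls reached lower ratios. Gigyf2, a translational repressor gene, had 34 Sham and 3 LPS reads at chr9:94463647-94504892, a ratio of 0.064. Its 7 shorter circRNAs had 2404 and 1541 reads, a ratio of 0.465. The circRNA at chr14:113271542-113314869, with no gene of its own, fell from 1653 CPM (1292 to 2114) to 190 CPM (103 to 351). A longer Acbd6 circRNA of 79463 nt had 13 and 2 reads, although it starts where the abundant Acbd6 circRNA starts. Prex2, which encodes an exchange factor for the GTPase Rac, had 18 and 3 reads at chr5:7703776-7780390, a ratio of 0.121. Nav2, a cytoskeleton-associated gene, had 12 and 2 reads.

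With 20 or more reads in 1 library alone, 12 long-span circRNAs were listed in LPS and 3 in Sham. Over all spans it was 82 and 13. Both counts leaned to LPS, so this direction was not particular to long spans. A limit in reads is also a lower level in LPS, where 1 read was worth 19.0 CPM against 26.2 CPM in Sham. The most abundant of the 15, Tmem164, was in Sham. The most abundant in LPS alone lay at chr1:124508122-124543680, with 36 reads, no gene of its own and at least a 5.51-fold rise. Tlk2, a kinase gene of chromatin assembly, followed with 30 reads (571 CPM, at least 4.59-fold) at chr10:93451477-93483645. Its 3 shorter circRNAs had 28 Sham and 27 LPS reads. A circRNA at chr2:248222990-248253593 also had 30 reads. Susd1, which encodes a sushi domain protein, had 29 reads at chr5:76586377-76622611, at least 4.44-fold, and its shorter circRNA had 0 and 3 reads. Zfp759, a zinc finger gene, had 28 reads. Further ones, named after their values were seen, came from Nox4, an NADPH oxidase gene (27 reads), Gas2 (26), Rin2 (25), Lpp, which acts at focal adhesions (23), Utrn, the utrophin gene (22), and Ank3, the ankyrin-G gene (20).

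In Sham alone, Tmem164 led. It was followed by the circRNA at chr6:144211592-144275272 with 63 reads, at least 18.3-fold lower in LPS, and one at chr10:15577563-15603016 with 27 reads, at least 7.84-fold lower. Neither had a gene of its own. The next had fewer than 20 reads. One at chr19:15125988-15229778 named Ces1d, a carboxylesterase gene, and LOC501233, with 19 reads, and one at chr2:4961753-4991265 had 14.

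The 5 longest circles had few reads. The longest, at chr2:251176578-251376470, had 2 Sham reads. Next came a circle of 197787 nt that named Tap2, RT1-CE2, RT1-CE4 and RT1-CE7, with 3 Sham reads, and one of Kcnq1, a potassium channel gene, of 196032 nt with 2. Yeats2, a reader of modified histones, had a circle of 192493 nt with 2 Sham and 5 LPS reads. The fifth, of 191207 nt, named C4a and Tap2 and had 4 Sham reads. Only Yeats2 was listed in both libraries, and all 5 were below 10 reads. At the limit itself, Mcph1 (25026 nt, 2 Sham reads), Cdkal1 (25034 nt) and a circRNA of chromosome 13 (25050 nt, 2 Sham reads) lay just inside. Man2a1 (24970 nt, 15 and 18 reads), Mark3 (24951 nt, 7 and 12) and Limch1 (24872 nt, 2 and 0) lay just outside.

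Several host names in one field were more frequent in long-span circRNAs. They were given for 199 of the 525 (37.9%), against 18.7% of all circRNAs. The share was 31.4% from 25000 to 49999 nt, 43.0% from 50000 to 99999 nt and 67.3% at 100000 nt or more. A list held up to 22 names. Most of these names did not mark a local host. Names of small RNA families ran on along a chromosome: of 300 pairs of such a name and a chromosome, 265 (88.3%) formed 1 uninterrupted run among the circRNAs with lists, with a median reach of 69.9 Mb. A further 8 gene names also reached over 28.6 to 94.8 Mb (Dcp2, Ces2a, Ears2, Rpl39, Eif3h and 3 numbered LOC names), whereas the next gene name, C4a, reached 1.77 Mb. In the reference annotation GRCr8 Eif3h lies on another chromosome than the one named in the table. Dcp2, Ces2a, Ears2 and Rpl39 lie on the same chromosome as in the table. Names of small RNA families, and gene names with a reach above 3 Mb, were set aside, and the remaining names were counted as local genes.

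By local genes, 325 long-span circRNAs had a single gene name, 69 had a list with 1 local gene, 13 had a list with at least 2, and 118 (22.5%) had none. The classes differed in their LPS to Sham share ratio. It was 0.745 (0.702 to 0.790) with a single gene name, 1.14 (0.972 to 1.33) for a list with 1 local gene, 0.274 (0.182 to 0.415) with at least 2 local genes and 0.483 (0.443 to 0.525) with none. The circRNAs without a local gene held 3.43% of the Sham and 1.66% of the LPS reads. The lower share of long-span circRNAs in LPS was thus present with a single gene name and was steeper without a local gene. It was not seen for a list with 1 local gene, whose interval included a ratio of 1. Without the 3 most-read circRNAs of each class, the ratios were 0.739, 1.05, 0.207 and 0.563, in the order above.

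**Figure D4:**
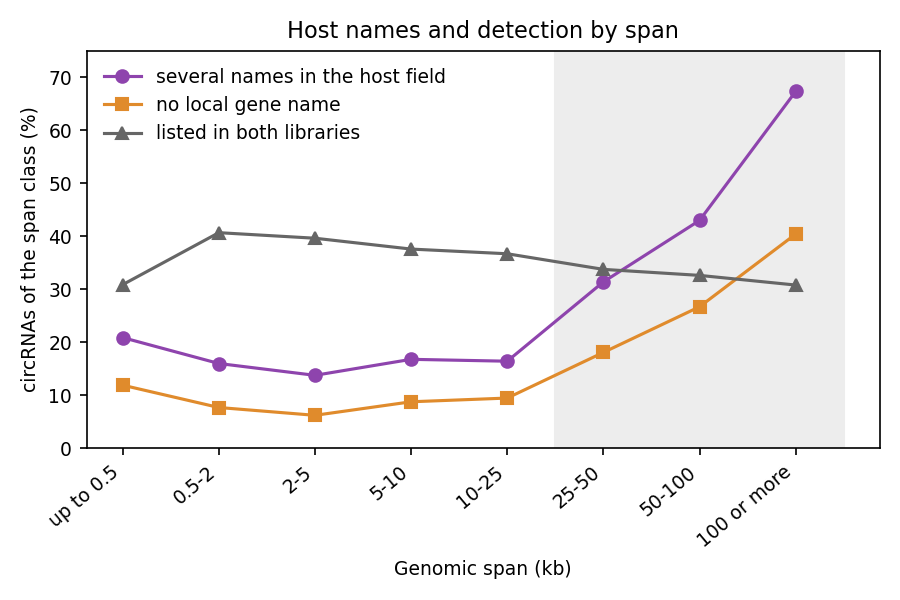
Percent of the circRNAs of each genomic span class (kb) with several names in the host field (purple), with no local gene name (orange) and listed in both libraries (grey). In the shaded long-span classes several names rise from 31.4% to 67.3%, while detection in both libraries stays between 30.8% and 33.7%.

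The 13 circles over at least 2 local genes were dominated by gene families. On chromosome 20, 7 joined C4a, Tap2, Btnl5 or the class I genes RT1-CE2, RT1-CE4 and RT1-CE7 of the MHC. Tap2 encodes a transporter that loads peptides on class I molecules, and C4a a complement component. The most abundant, C4a with Tap2 (190731 nt), had 17 Sham and 16 LPS reads. Tap2 with RT1-CE2 had 13 Sham reads and none in LPS, and a circle of 103992 nt with all 3 RT1-CE genes had 11 and 5. Of the others, Ces1d with LOC501233 had 19 and 9 Sham reads in 2 circles, Vom1r109 with Lilrb3l had 4 and 2 LPS reads in 2 circles, Abhd10 with Tagln3 had 3 Sham reads and Rsph4a with Kpna5 had 2 LPS reads. These 13 had 82 Sham and 31 LPS reads in all. MHC, complement, carboxylesterase and receptor genes of these kinds have near-identical copies, so that reads can be assigned to the wrong copy and both the host and the span are uncertain. In GRCr8, C4a and Tap2 lie 28 protein-coding genes apart and Tap2 and RT1-CE2 73.

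Most of the 118 circRNAs without a local gene lay away from other circRNAs of a named gene. A total of 92 overlapped none, 26 overlapped at least 1, and 17 shared an end with one. Examples of shared ends are 3 at the Mllt10 locus on chromosome 17, 2 of Faf1 and 1 each of Ptprg, Nckap5 and Elf2. At one locus on chromosome 4, 6 circRNAs listed under LOC100360260 shared or adjoined ends between 131598112 and 131957241. They had 14 and 18, 4 and 7, 3 and 0, 0 and 2, 2 and 0, and 0 and 2 Sham and LPS reads. The circles ranged from 30392 to 176651 nt, and the 2 most abundant were listed in both libraries. The seventh circRNA under that name, at chr4:151118221-151167953, had 0 and 4 reads.

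Long-span circRNAs shared their ends with other circRNAs more often than the table as a whole. At least 1 end was shared by 342 of the 525 (65.1%), against 37.4% of all, and both ends by 106 (20.2%), against 6.42%. Another circRNA lay between the ends of 329 (62.7%), against 21.7% of all, a share that a longer span raises by construction. Of the 394 with 1 local host, 303 (76.9%) had a shorter circRNA in that host, against 60.8% of all. Only 8 had a partner within 20 nt at both ends. Among these 4 pairs, the Psd3 circRNA above had a partner shifted by 3 nt with 4 Sham and 18 LPS reads, where the main form had 104 and 83. The pair of Prkch, shifted by 14 nt, had 22 and 81 against 6 and 6 reads. In Vti1a, a SNARE gene, a shift of 11 nt separated 3 and 5 from 0 and 6 reads. These shifted pairs were kept as separate circRNAs, as in the table.

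Ends of different circRNAs that lay within 500 nt of each other were also searched for. There were 46 stretches of under 500 nt that began at the left end of one long-span circRNA and stopped at the right end of another circRNA. Their median length was 132 nt (47 to 443), which the search limit of 500 nt bounds. Larger distances were not counted. In 33 of the 46, both circRNAs had the same local host. In others, 1 circRNA closed where the next opened, as in Acbd6 with a stretch of 106 nt. Exon positions of build rn6 were not used here, so these stretches were not matched to exons.

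Host genes numbered 284 after the names above were set aside. Of these, 201 had 1 long-span circRNA, 54 had 2 and 29 had at least 3. Of all 292 gene names, 278 matched a symbol or synonym in GRCr8 and 277 of them lay on the same chromosome. Crim1, which encodes a transmembrane regulator of bone morphogenetic proteins, had the most, with 7. Its 7 had 84 Sham and 86 LPS reads, while its 8 shorter circRNAs had 179 and 396. The 2 abundant ones stayed near equality, at 866 and 895 CPM for chr6:871525-907083 and at 708 and 552 CPM for chr6:828602-872927. A circle of 78482 nt that joined the outer ends of both had 12 and 8 reads. The remaining 4 had at most 6 reads, and 3 of them were in Sham alone.

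Acbd6 had 6, with 183 Sham and 179 LPS reads, of which the circle of 25992 nt held 314 of 362. The rest had 6 and 15, 13 and 2, 6 and 2, 2 and 0, and 2 and 0 reads, so that one was more frequent and 4 were less frequent in LPS. The following hosts were chosen after their values were seen, from those with at least 3. Rps6ka5, a kinase gene of the MAP kinase pathway, had 6 with 47 and 83 reads, 2 of them higher and none lower. Rere, a transcriptional corepressor gene, had 6 with 43 and 33 reads. Its 5 circles from one left end ran from 40275 to 129430 nt. The shortest had 10 and 19 reads, and each of the other 4 was called lower, with 14 and 6 reads at 72250 nt and 15 and 4 at 129430 nt. The other 2, of 61741 and 95074 nt, had 2 Sham reads each.

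Prex2 had 6 with 26 and 10 reads, and its 9 shorter ones had 155 and 52, so that both classes were lower in LPS. Nckap5 had 5 with 69 and 109 reads, and its 3 shorter ones had 23 and 44. Nfib, a transcription factor gene needed for lung maturation, had 3 long-span circRNAs, all in LPS alone, with 8, 3 and 2 reads, and no shorter one. Cdk14, a cyclin-dependent kinase gene, had 3, of which 15 and 8 LPS reads came from 2 and 3 Sham reads from the longest. Hosts thus differed in direction, and the lower share of the group was not a property of each.

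**Figure D5:**
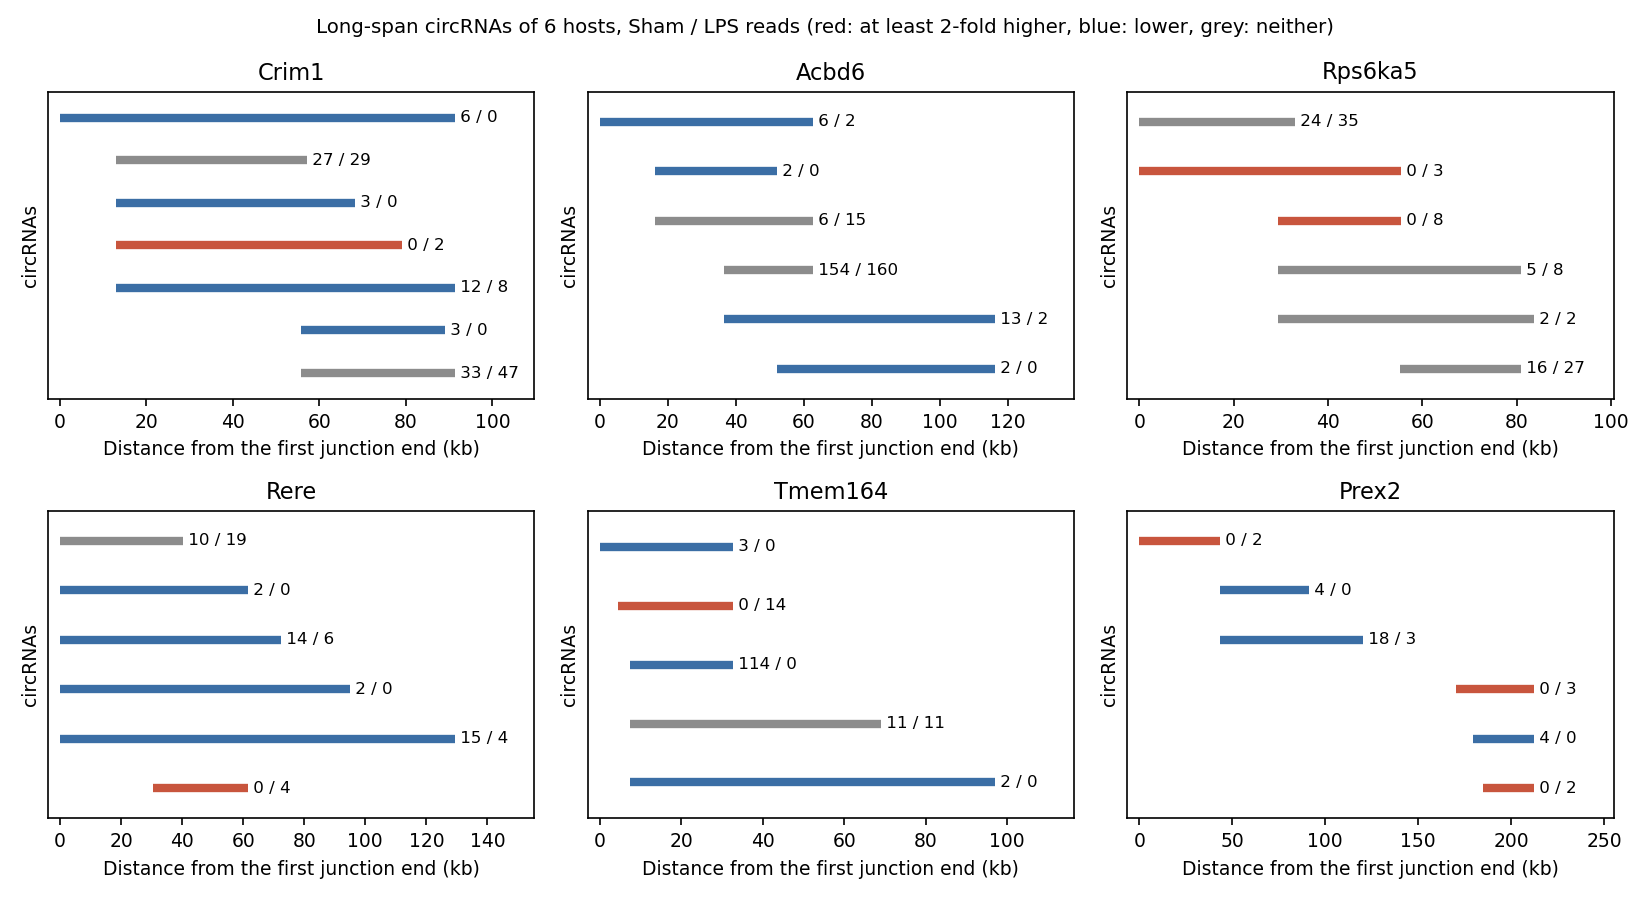
Long-span circRNAs of 6 hosts drawn to scale as bars from the left to the right end, in kb from the first end in that host, with Sham / LPS reads at the right. Red bars were at least 2-fold higher in LPS, blue bars at least 2-fold lower and grey bars neither; in Rere the 4 longer circles from the shared left end are blue and the shortest is grey.

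Groups of host genes were counted beside the same group at all spans. The groups were built from name patterns and leave out some genes of each kind. Among hosts described above, Rps6ka5 is outside the kinase group, Fam188a outside the ubiquitin group and Vti1a outside the vesicle group. The group of chromatin and histone modifiers had 28 long-span circRNAs of 16 hosts. Of these 5 were higher in LPS, 17 lower and 6 neither, against 65, 84 and 50 of 199 at all spans. Their share ratio was 0.563, against 0.966 at all spans. Rere gave 6 of the 28. The others called lower included Arid1b, a chromatin remodelling subunit (10 and 0 reads), Ash1l, a histone methyltransferase (10 and 0), Cdyl (17 and 9) and Dnmt3a, a DNA methyltransferase (8 and 2). Jmjd1c, related to histone demethylases, had 472 CPM in Sham and 914 CPM in LPS, a ratio of 1.94 that missed the rule.

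The kinases and phosphatases matched by name had 27 long-span circRNAs, 11 higher, 11 lower and 5 neither, against 99, 132 and 51 of 282 at all spans. The share ratio was 1.76, against 1.11. Prkch and Tlk2 held most of their LPS reads. Phkb, a subunit of the kinase that activates glycogen phosphorylase, had 1 long-span circRNA of 35902 nt at chr19:22143683-22179584 with 0 and 2 reads. Its 5 shorter circRNAs had 36 and 81. The long Phkb circle was too rare at this depth to give a direction.

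Transcription factors and zinc finger genes had 27, 11 higher, 10 lower and 6 neither, against 76, 67 and 45 of 188 at all spans. Their ratio was 1.03, against 1.27. Cytoskeleton, adhesion and junction genes had 25, 10 higher, 13 lower and 2 neither, against 80, 132 and 38 of 250. Their ratio was 0.924, against 0.874. Only 2 of those 25 were listed in both libraries, 1 of Adamts6 and 1 of Adamts17. These genes and Adamts9 encode secreted metalloproteases and entered this group by name pattern. In Lpp the circle of 90054 nt had 23 LPS reads and the one of 38344 nt had 9 Sham reads, with the same right end and none in the other library. Sptbn1, a spectrin gene, had 9 Sham reads, and Itga9, an integrin gene, had 7 LPS reads.

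Vesicle and membrane trafficking genes matched by name had 19, 5 higher, 10 lower and 4 neither, against 95, 91 and 46 of 232 at all spans. Their ratio was 0.668, against 1.18. Uvrag, which acts in autophagy and endosome traffic, had 34 and 32 reads in the most abundant of them, and Rab31 had 14 and 22. RNA-binding and splicing genes had 11, with 3 higher, 4 lower and 4 neither, against 51, 72 and 40 of 163, and a ratio of 0.957, against 0.865. Pan3, a deadenylase subunit gene, had 14 and 9 and 18 and 4 reads in its 2 circles, both called lower, and Cnot6l, a deadenylase gene, had 3 and 13 reads. Ubiquitin ligases and deubiquitinases matched by name had 6, with 4 higher, 1 lower and 1 neither, against 62, 63 and 32 of 157, and a ratio of 1.97, against 0.984. Among these Arih1, a ubiquitin ligase gene, had 10 and 35 reads, and Ube2k, a ubiquitin-conjugating enzyme gene, had 0 and 13.

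Innate immune and NF-kB signalling genes had a single long-span circRNA, of Arhgap15 with 2 Sham reads, out of 52 circRNAs of such genes at all spans. Those 52 had 32 higher and 10 lower, with a share ratio of 2.63. Of 30 marker genes of lung cell types, 10 were circRNA hosts at any span and 1 had long-span circRNAs. This was Rtkn2, a marker of alveolar type 1 cells. Its 2 long-span circRNAs had 7 and 2, and 6 and 0 reads, both lower in LPS, while its 4 shorter ones had 40 and 110. At all spans, Rtkn2 had 53 Sham and 112 LPS reads. The stromal genes Eln and Col3a1 had 331 and 206, and 70 and 2, and the endothelial gene Tek had 18 and 2. The other 6 had at most 6 reads each: Sftpc, Sftpd, Abca3, Pdgfra, Mrc1 and Itgam. The remaining 20 markers, among them Ager, Pecam1 and Ptprc, had no circRNA in the table. Marker genes of different cell types thus differed between the libraries in both directions, and their part in the long-span values was not tested.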

How the data were processed

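CircRNA was sequenced from lung tissue of SD rats, with 1 Sham and 1 LPS library assigned by their labels. The authors deposited 1 table of 4734 circRNAs with junction position, host names and a value per library headed TPM. These deposited values count junction reads, which the authors had scaled to CPM (a sum of 1e+06 per library) with no length term: 100% of the values above the fill-in of 0.001 were whole reads within 0.05 reads. Per the methods, relative levels came from Cufflinks, and R was used to find differential circRNAs. The submitters' processing notes also name CASAVA 1.8, BWA and the build rn6, without a role. The labels describe a strand-marking library kit, while the methods describe another kit. The circRNA caller and the annotation are not given in the sources used here.

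Reads and depths (38112 in Sham, 52505 in LPS) were taken from the size of 1 read. Calls used a fold of 2 on log2(CPM + the CPM of 0.5 reads). This pulls the ratio of low circRNAs listed in both libraries toward that of equal reads. For circRNAs listed in 1 library it overstates the change where the fill-in stands for 1 read. With the fill-in taken as 1 read, higher calls fell from 162 to 76 and lower calls stayed at 255. A share carries a 95% Wilson interval, and a ratio of shares a log-normal interval. With 1 library per group no test was made and no p-value is given. Names of small RNA families, and gene names that reached over more than 3 Mb of a chromosome, were not counted as hosts. Gene names were matched to GRCr8, which was used for names, chromosomes and the order of genes but for no printed coordinate. Host groups were built from name patterns and are not complete. Cdkal1 and Usp6nl matched a name pattern of a host group without belonging to it and were left out of it after the values were seen. The comparison of long-span with shorter circRNAs of the same host was also added after the values were seen. The members, host groups and rules were chosen with earlier results of these data known.

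Named circRNAs were the 10 with the most reads, the 5 with the largest ratio each way among those in both libraries with at least 10 reads, the 5 with the most reads in either library alone, the 5 longest, the 5 with the most reads among those with several names, those of the 5 names with the most members and of 8 primer genes, and the 3 on each side of the limit. The 5 names were Eif3h, Crim1, LOC100909885, LOC100360260 and Acbd6. Of the primer genes, Tlk2, Susd1 and Phkb had a long-span circRNA. The alternatives were a pseudocount of 1 read, the fill-in kept or taken as 1 read, a fold of 4, at least 10 reads, the median of ratios, other span limits and a single host name. Some host genes and a host group are not reported here. Steps were tested on simulated data. The software was scipy 1.17.1 with numpy 2.4.6, pandas 2.3.3 for tables and matplotlib 3.10.9 for figures, under Python 3.11.15.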

Additional observations from a re-analysis of the deposited data

How the results depend on the processing

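The lower share of long-span circRNAs in LPS held its direction under each alternative run. The ratio of shares was 0.669, and it was 0.721 with at least 10 reads, 0.757 from a span of 20000 nt, 0.606 from 50000 nt, 0.745 with a single host name and 0.714 without the 3 most-read long-span circRNAs. The last setting, and the other alternatives for the ratio, were chosen after seeing the data. The Sham share of 9.78% became 13.3% from 20000 nt, 3.52% from 50000 nt and 5.47% with a single host name, and the LPS share of 6.55% became 10.04%, 2.13% and 4.08%. The 162 higher circRNAs became 76 with the fill-in taken as 1 read, 95 at 4-fold, 30 with at least 10 reads, 50 from 50000 nt and 98 with a single host name. The 255 lower ones became 52 with at least 10 reads, 99 from 50000 nt and 156 with a single host name. Counts under other span limits, host names or read minimums cover fewer or more circRNAs by construction. Of the circRNAs called, 38.8% were higher, which became 22.96% with the fill-in taken as 1 read, 30.4% at 4-fold and 42.6% with the median of ratios. From 50000 nt, 60 were listed in both libraries instead of 174. The median log2 ratio of -0.46 became -1.61e-05 with the median of ratios over all shared circRNAs, since that scale is the value of equal reads; it shifts all circRNAs alike. For the named circRNAs, 265 of 276 values stayed on their side of the 2-fold rule, 9 dropped below it and 2 passed it. With the median of ratios 5 that were not called changed sign (the circRNA at chr17:38026513-38080864, the abundant ones of Acbd6 and Cdkal1, Crim1 at chr6:828602-872927 and the one at chr4:131694682-131745135), and no called one did.

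No paired analysis was possible because there was only 1 Sham and 1 LPS library, and leaving out a library would leave a group empty. The depth of 38112 and 52505 junction reads limits most long-span circRNAs: 378 of 525 had fewer than 10 reads, and the fill-in allows up to 124 CPM in Sham and 90.4 CPM in LPS. Library preparation, sequencing run and treatment cannot be told apart with these 2 libraries.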
